A study of Solanum lycopersicum with 9 samples.

Results

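Covering the other leaves of a tomato plant with foil was compared with no treatment through the messenger RNA of 1 uncovered leaf. The shading group had 3 libraries from plants in which aluminium foil was put over every leaf but the youngest fully expanded one, and that uncovered leaf was sampled. Although mesophyll is the labelled cell type, the protocol describes extraction from leaves. The control group had 3 libraries from matching leaves of untreated plants. All plants were wild type (WT in the labels) of the cultivar M82, raised for 4 weeks in a growth chamber and then grown in pots in a greenhouse, and treatment began in the reproductive stage, 1 week after the first flowers opened. The series' design text calls the libraries biological replicates. The shading titles also carry the number 48 without a unit and the control titles carry no number, so what it marks cannot be told apart from shading. The 6 libraries were chosen by these labels from the 9 of the series, whose remaining 3 come from partly defoliated plants.

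A mature leaf is a source organ: its chloroplasts capture light, fix carbon in the Calvin cycle, store part of it as starch and export part as sucrose through the phloem to sinks such as roots, young leaves and fruit. When many leaves are darkened, fewer lit leaves serve the same sinks. Leaf sugars and hormones (ethylene, abscisic acid, jasmonate, gibberellin, auxin) are known to act on the transcription of photosynthetic, growth and senescence genes.

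The count table pairs no locus with a gene name. Gene roles below rest on published tomato locus names, recalled without a lookup table and kept only where the RefSeq gene table (assembly SLM_r2.1) holds the same name, a listed synonym or a symbol matched to it by hand on the same chromosome, at a matching place in the gene order, within 50 genes. Of 471 loci listed, 285 in 38 lists passed this check. RefSeq symbols that differ from the name used include ACO3 for E8, gad2 for GAME11, AI for TIV1, CIF1 for INVINH1, nii1 for NIR, GAI for PROCERA, CURL3 for BRI1 and HSTF24 for HSFB1. Members of tandem families (CAB, PAL, HSP17, PR1, XTH3) are identified as family members only, and RSEM may have divided reads between near-identical copies. Names are given with the locus where it is first described, and levels are CPM (counts scaled to the effective library size), which are compared between libraries and not between genes; the highest CPM of a list is named as such, with no correction for gene length.

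Total counts were 17617138 to 29758980 in the shading libraries and 25202105 to 27988818 in the control libraries. Shading replicate 3 was the shallowest, with 1657 genes at 0, against 448 to 711 in the other 5. Control replicate 3 stood apart: 136 genes of at least 5 CPM there lay over 4 times above every other library of the comparison, against 0 to 11 such genes in each of the other 5. Rubisco small subunits and light-harvesting genes, which mark mesophyll, were abundant in every library, with the sums given below, and the floral organ gene TAG1 (Solyc02g071730.3) was at 1.68, 1.27 and 0.775 CPM in shading and 1.55, 1.23 and 1.65 CPM in control libraries. In bulk leaf RNA, fewer cells of a type and less RNA per cell cannot be told apart.

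Of 20480 genes tested by edgeR's quasi-likelihood test, 30.2% were called at a Benjamini-Hochberg adjusted p below 0.05, 16.0% higher and 14.2% lower in shading. Among the 285 named genes 270 were tested, and 57 of them (21.1%) were called higher and 56 (20.7%) lower. Their median log2 fold change was -0.07, against -0.022 over all tested genes. All shading libraries lay above all control libraries for 75 of them and below for another 75, where the groups did not overlap at 46.3% of all tested genes, 23.1% with shading above and 23.2% with shading below. By list, those for Rubisco, light harvesting, photosystem II with electron carriers, and chlorophyll synthesis held rises and no fall. Those for ethylene, Aux/IAA, phenylpropanoids and senescence held falls and no rise, and several lists held no call. The calls of each list below are to be read beside the 16.0% and 14.2% of all tested genes.

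**Figure D1:**
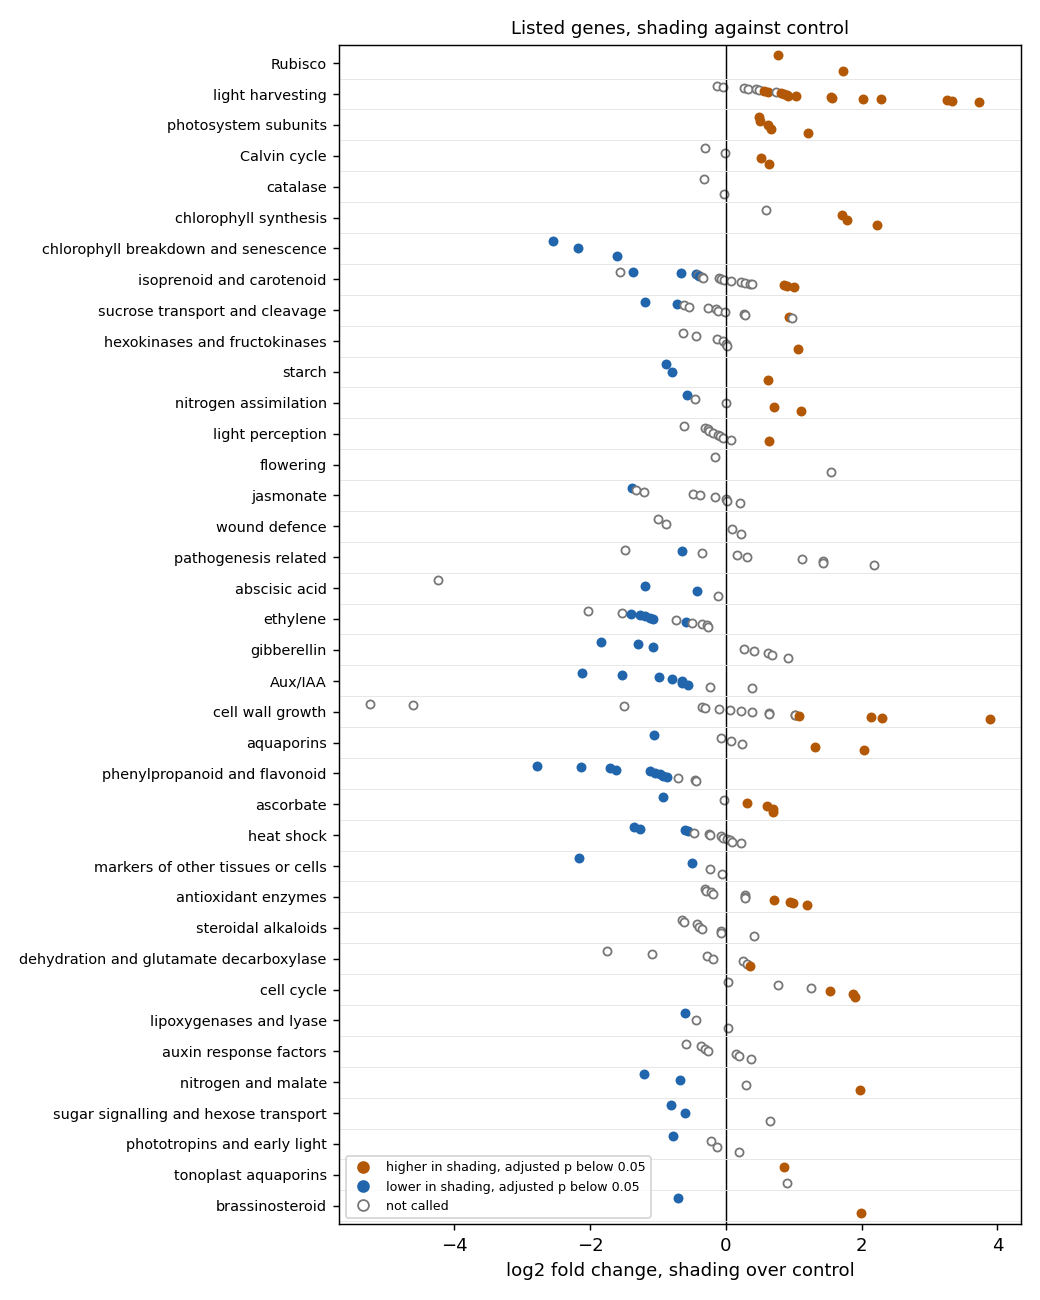
Log2 fold change of shading over control (x axis) for each of the 270 tested named genes, 1 point per gene, in 1 row per list; orange points were called higher in shading, blue points lower, and open points were not called. Light harvesting reaches 3.72 to the right, and EXP12 of cell wall growth lies slightly beyond it. Called phenylpropanoid and flavonoid genes reach -2.78 to the left. Some open points lie farther left, such as tXET-B2 of cell wall growth (-5.23) and CYP707A2 of abscisic acid (-4.24).

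Rubisco small subunit genes and most genes of light capture were higher in shading. Both Rubisco small subunit genes, 14 of 21 light-harvesting chlorophyll a/b-binding (CAB) genes and all 5 photosystem II and electron carrier genes were called higher. None was called lower. The medians were 1.25, 0.85 and 0.62 on the log2 scale. The listed loci of photosystem I subunits (PSAD, PSAF, PSAG, PSAH, PSAL and PSAN) did not pass the name check, so none is covered here. The summed CPM of the 2 Rubisco genes was 48950 to 59630 in shading libraries, against 22950 to 32390 in control libraries. The summed CPM of the 21 CAB genes was 45100 to 62850 in shading libraries, against 31480 to 39690 in control libraries.

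RBCS3 (Solyc02g085950.3), the Rubisco small subunit gene of higher CPM, had 47368, 39148 and 44129 CPM in shading leaves, against 19860.1, 28599 and 27847 CPM in control leaves. The lowest shading library lay above the highest control library, and the log2 fold change was 0.78 ± 0.17 (SE, adjusted p = 0.00807, edgeR). The second gene, rbcS1 (Solyc02g063150.3), had 12262, 9800.4 and 11174 CPM in shading leaves, against 3092, 3787 and 3139.7 CPM in control leaves, a log2 fold change of 1.73 ± 0.15 (adjusted p = 0.000265, edgeR). Its groups were farther apart than those of RBCS3, with close replicates in each.

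The CAB genes bind the antenna chlorophyll of both photosystems. The one with the highest CPM, a Cab-3C locus (Solyc03g005760.1), had 6818, 7516 and 7548 CPM in shading leaves and 4476, 5663 and 4648 CPM in control leaves, a log2 fold change of 0.57 ± 0.14 (adjusted p = 0.0149, edgeR). The largest rise was that of CAB12 (Solyc06g069730.3), with 80.0, 197 and 208 CPM in shading leaves and 4.79, 18.3 and 13.6 CPM in control leaves, a log2 fold change of 3.72 ± 0.66 (adjusted p = 0.00478, edgeR). Within each group replicate 1 was the lowest for CAB12, and the groups did not overlap. Large rises also sat in the tandem CAB cluster on chromosome 2: the log2 fold change was 3.33 at Solyc02g070990.1, 3.26 at Solyc02g070950.1 and 2.28 at Solyc02g070970.1, while the neighbouring Solyc02g070940.1 rose by 0.82. Solyc02g070950.1 moved to 3.87 without control replicate 2. CAB4 (Solyc07g047850.3, log2 fold change -0.13) and a CAB13 locus (Solyc12g011450.2, -0.04) were not called and had overlapping groups. CAB9 (Solyc06g063370.3) rose by 0.62 and a locus on chromosome 2, Solyc02g071000.1, by 1.55. Calls were lost for Solyc03g005760.1 without control replicate 1 or 3 (log2 fold change 0.50 to 0.53), Solyc06g063370.3 without shading replicate 3 or control replicate 1 (log2 fold change 0.53 to 0.55) and Solyc02g071000.1 without shading replicate 3 or control replicate 1 (log2 fold change 1.30 to 1.37).

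Among photosystem genes, PSBO (Solyc02g065400.3), the manganese-stabilising protein of photosystem II, had 3609.9, 3953 and 4633 CPM in shading leaves and 2720.2, 3069.7 and 2892 CPM in control leaves, a log2 fold change of 0.49 ± 0.16 (adjusted p = 0.0385, edgeR). PETE (Solyc04g082010.1), which encodes plastocyanin, the copper protein that carries electrons to photosystem I, had 2331, 3165 and 2482 CPM in shading leaves and 987, 1407 and 1072 CPM in control leaves, a log2 fold change of 1.20 ± 0.17 (adjusted p = 0.00117, edgeR). All shading libraries lay above all control libraries for both genes. The other oxygen-evolving proteins PSBP (Solyc07g044860.3) and PSBQ (Solyc02g079950.3) rose by 0.62 and 0.66 on the log2 scale, and PSBS (Solyc06g060340.3), needed for the dissipation of excess light, by 0.50. When 1 library was left out, calls ended for PSBO without shading replicate 2 or 3 or control replicate 1, 2 or 3 (log2 fold change 0.39 to 0.56), PSBP without control replicate 3 (log2 fold change 0.59) and PSBQ without control replicate 1 (log2 fold change 0.58). It also ended them for PSBS without control replicate 1 (log2 fold change 0.45). Upper-quartile scaling also ended the call of PSBO (0.49). The number of these 5 genes called fell to 2 without control replicate 1 and to 3 without control replicate 3.

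Among the named genes, those listed under chlorophyll synthesis were mostly higher in shading, and those of chlorophyll breakdown (SGR1) and senescence (NAP1, NAP2) lower. Other listed loci did not pass the name check and are not described, such as CHLH, CHLI and HEMA1 of synthesis and PPH, PAO and NYC1 of breakdown. The synthesis list held 4 genes, 3 of enzymes and the regulator GLK1, and the 3 enzyme genes were called higher (median of all 4, 1.75). All 3 breakdown and senescence genes were called lower (median -2.17). Protochlorophyllide oxidoreductase makes chlorophyllide in a step that needs light. Its locus POR2 (Solyc07g054210.3) had 457, 542 and 574 CPM in shading leaves and 148, 189 and 144 CPM in control leaves, a log2 fold change of 1.71 ± 0.16 (adjusted p = 0.000271, edgeR). The second locus, POR (Solyc10g006900.3), had 79.5, 183 and 129 CPM in shading leaves and 23.3, 35.8 and 25.1 CPM in control leaves, a log2 fold change of 2.22 ± 0.30 (adjusted p = 0.00105, edgeR). Both loci were separated between groups, with replicate 2 highest in control at each. GSA (Solyc04g009200.3), the aminotransferase that makes the tetrapyrrole precursor, had 441, 372 and 372 CPM in shading leaves and 118, 133 and 91.5 CPM in control leaves (log2 fold change 1.79 ± 0.18, adjusted p = 0.00038, edgeR). GLK1 (Solyc07g053630.3), a regulator of chloroplast genes, had a log2 fold change of 0.59 and was not called (adjusted p = 0.0673, edgeR), but DESeq2 called it, as did the test without control replicate 1 (0.82).

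SGR1 (Solyc08g080090.3) is the STAY-GREEN protein that starts chlorophyll breakdown. It had 30.5, 47.6 and 36.9 CPM in shading leaves, against 113, 92.7 and 146 CPM in control leaves, and its log2 fold change was -1.61 ± 0.24 (adjusted p = 0.00152, edgeR). NAP1 (Solyc05g007770.3), a NAC transcription factor of leaf senescence, had 7.20, 9.17 and 4.97 CPM in shading leaves and 44.2, 32.2 and 48.9 CPM in control leaves, a log2 fold change of -2.54 ± 0.23 (adjusted p = 0.000297, edgeR). For NAP2 (Solyc04g005610.3), a related factor, the values were 2.00, 3.63 and 4.07 CPM in shading leaves and 19.1, 13.2 and 11.0 CPM in control leaves (log2 fold change -2.17 ± 0.39, adjusted p = 0.00352, edgeR). Every shading library lay below every control library for each of these genes, and leaving out any 1 library ended none of these 3 calls.

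**Figure D2:**
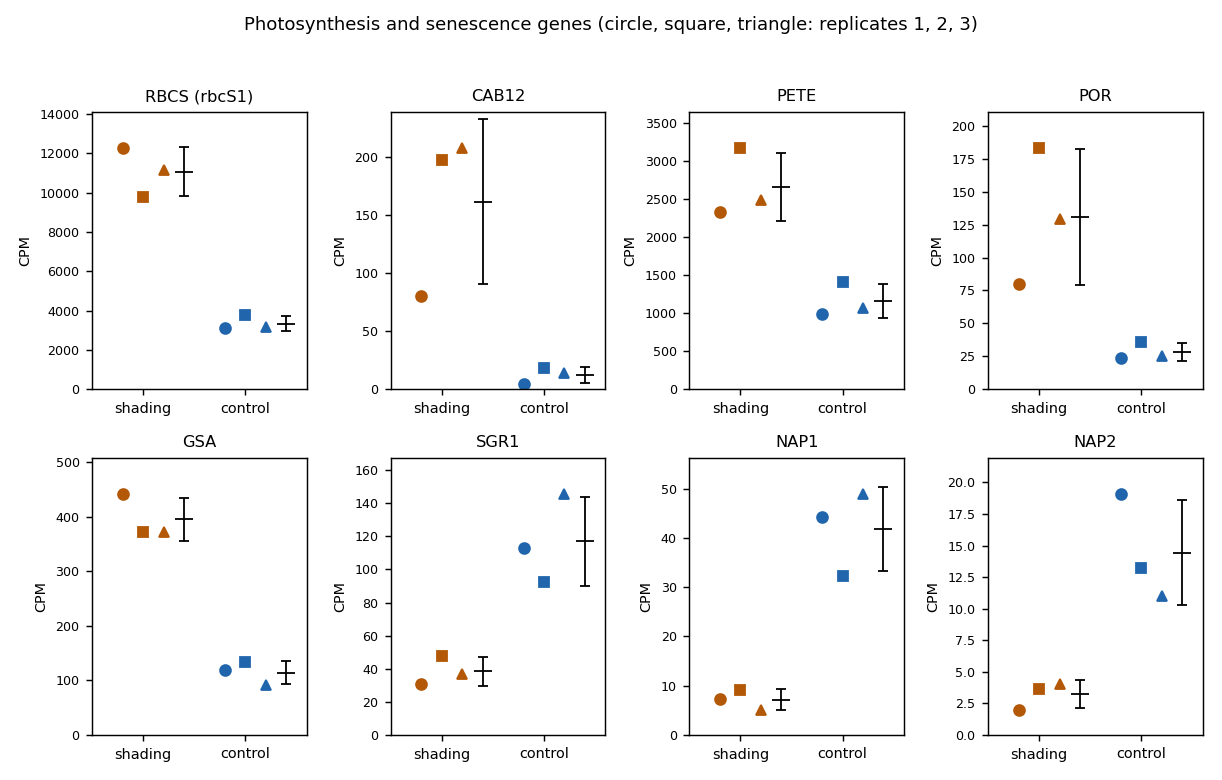
CPM (y axis, linear from 0) of 8 genes in shading (left) and control (right) libraries; coloured points are libraries, with a marker shape per replicate, and the black bar is the mean with its SD (n = 3). RBCS (rbcS1), CAB12, PETE, POR and GSA lie higher in all shading libraries, and SGR1, NAP1 and NAP2 lie lower in all of them.

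Apart from the Rubisco genes above, genes of carbon fixation, storage and use changed in part. In the Calvin cycle, 2 of 4 further genes were called higher. The aldolase FBA1 (Solyc01g110360.3) had 6249, 5940.1 and 7129 CPM in shading leaves and 4049, 4751 and 3603 CPM in control leaves, without overlap, and rose by 0.64 ± 0.14 on the log2 scale (adjusted p = 0.0085, edgeR). SBPASE (Solyc05g052600.3), a phosphatase of ribulose bisphosphate regeneration, rose by 0.51. FBA2 (Solyc02g062340.3) and FBA3 (Solyc02g084440.3) had log2 fold changes of -0.01 and -0.30 and were not called. Leaving out shading replicate 3 or control replicate 1 or 3 ended the call for SBPASE (log2 fold change 0.41 to 0.52).

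Of 3 starch genes 2 fell and 1 rose. BAM1 (Solyc09g091030.3), a beta-amylase that releases maltose from starch, had 628, 532 and 448 CPM in shading leaves and 947, 967 and 1034 CPM in control leaves, a log2 fold change of -0.88 ± 0.14 (adjusted p = 0.00183, edgeR). AGPL3 (Solyc01g079790.3) and AGPL1 (Solyc01g109790.3) encode large subunits of ADP-glucose pyrophosphorylase, the enzyme that commits carbon to starch, and they moved in opposite directions. AGPL3 had 435, 367 and 448 CPM in shading leaves and 261, 274 and 276 CPM in control leaves (log2 fold change 0.62 ± 0.12, adjusted p = 0.00454, edgeR). AGPL1 had 66.8, 78.7 and 74.1 CPM in shading leaves and 136, 118 and 125 CPM in control leaves (log2 fold change -0.79 ± 0.13, adjusted p = 0.00185, edgeR). The groups did not overlap for any of the 3 starch genes, and leaving out any 1 library ended none of the calls.

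Among 12 tested sucrose transport and cleavage genes, 1 (8.33%) was called higher and 2 (16.7%) lower, against 16.0% and 14.2% of all tested genes. SUT1 (Solyc11g017010.2), the sucrose/proton symporter that loads the phloem, had 335, 425 and 393 CPM in shading leaves and 423, 418 and 326 CPM in control leaves; the groups overlapped, and the log2 fold change was -0.02 ± 0.15 (adjusted p = 0.944, edgeR). TIV1 (Solyc03g083910.4), the vacuolar acid invertase, had 127, 94.4 and 100.5 CPM in shading leaves and 311, 237 and 184 CPM in control leaves, a log2 fold change of -1.19 ± 0.20 (adjusted p = 0.00231, edgeR). All shading values lay below all control values. SUS3 (Solyc07g042550.3), a sucrose synthase, had 51.5, 55.3 and 33.1 CPM in shading leaves and 24.3, 25.9 and 23.4 CPM in control leaves, a log2 fold change of 0.93 ± 0.19 (adjusted p = 0.0058, edgeR). The invertase inhibitor INVINH1 (Solyc12g099200.2) fell by 0.72 on the log2 scale. The call was lost for INVINH1 without shading replicate 2 or 3 or control replicate 2 or 3 (log2 fold change -0.72 to -0.55). The sucrose phosphate synthase SPS (Solyc07g007790.3, log2 fold change -0.11) and the carriers SUT2 (Solyc05g007190.4, -0.14) and SUT4 (Solyc04g076960.3, -0.26) were not called. LIN7 (Solyc09g010090.4) was dropped by the filter on low counts.

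Of 7 hexokinase and fructokinase genes 1 (14.3%) was called higher by edgeR, against 16.0% of all tested genes, and none lower. This gene, HXK3 (Solyc12g008510.2), had 2.50, 2.01 and 1.42 CPM in shading leaves and 1.30, 0.845 and 0.724 CPM in control leaves, with a log2 fold change of 1.06 ± 0.34 (adjusted p = 0.0402, edgeR). HXK3 was not called without shading replicate 1 or 2 or control replicate 2 or 3 (log2 fold change 0.86 to 1.05). It was also lost in the fit of the 6 shading and control libraries alone (1.06). FRK2 (Solyc06g073190.3), a fructokinase, had 14.9, 14.4 and 8.20 CPM in shading leaves and 21.3, 21.4 and 16.0 CPM in control leaves, without overlap, and lay just above the threshold (log2 fold change -0.64 ± 0.22, adjusted p = 0.0509, edgeR). DESeq2 called it lower (-0.63), as did edgeR with a filter at 1 CPM (-0.64), without shading replicate 1 (-0.78) and without control replicate 3 (-0.76). FRK3 (Solyc02g091490.4), with the highest CPM of them, had 129, 111 and 109 CPM in shading leaves and 121, 116 and 121 CPM in control leaves, with overlapping groups and a log2 fold change of -0.04 ± 0.11 (adjusted p = 0.819, edgeR). HXK1 (Solyc03g121070.3), which also acts as a glucose sensor in Arabidopsis, had a log2 fold change of 0.02. SNF1 (Solyc02g067030.3), a kinase subunit of the energy sensor SnRK1, had 53.3, 60.1 and 58.2 CPM in shading leaves and 95.9, 84.0 and 80.5 CPM in control leaves and fell by 0.60 ± 0.11 on the log2 scale (adjusted p = 0.00398, edgeR). HT1 (Solyc02g079220.3), a hexose transporter, had 12.4, 20.8 and 18.3 CPM in shading leaves and 22.2, 33.7 and 33.9 CPM in control leaves, a log2 fold change of -0.80 ± 0.24 (adjusted p = 0.0312, edgeR). Without shading replicate 1 or 3 or control replicate 2 or 3, HT1 was not called (log2 fold change -0.85 to -0.61). Among 3 tested genes of sugar signalling and hexose transport, SNF1 and HT1 were called lower (66.7%, against 14.2% of all tested genes) and none higher. The remaining one, HT2 (Solyc09g075820.3), had a log2 fold change of 0.65 and was not called. DESeq2 (0.66), RLE scaling (0.66) and edgeR without shading replicate 1 (0.81) or control replicate 3 (0.80) called HT2 higher. The groups did not overlap for SNF1 or HT1. In malate and phosphoenolpyruvate metabolism, PPCK1 (Solyc04g009900.3), the kinase of phosphoenolpyruvate carboxylase, had 50.6, 28.6 and 21.1 CPM in shading leaves and 10.2, 8.57 and 6.82 CPM in control leaves, a log2 fold change of 1.98 ± 0.31 (adjusted p = 0.0018, edgeR). The malic enzyme ME1 (Solyc12g044600.3) had 554, 558 and 528 CPM in shading leaves and 844, 916 and 861 CPM in control leaves (log2 fold change -0.68 ± 0.11, adjusted p = 0.00169, edgeR). Shading replicate 1 was the highest for PPCK1, and both genes were separated between groups.

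In nitrogen assimilation, 2 of 5 genes rose and 1 fell. GS2 (Solyc01g080280.3), the chloroplast glutamine synthetase that recaptures photorespiratory ammonium, had 3799, 3523 and 4142 CPM in shading leaves and 1790.0, 1926 and 1616 CPM in control leaves, a log2 fold change of 1.10 ± 0.15 (adjusted p = 0.000835, edgeR). GS1 (Solyc11g011380.2), the cytosolic form, had 67.3, 100.5 and 87.2 CPM in shading leaves and 109.7, 142 and 126 CPM in control leaves, a log2 fold change of -0.57 ± 0.17 (adjusted p = 0.0279, edgeR). The 2 forms moved in opposite directions, each without overlap. Nitrite reductase NIR (Solyc01g108630.3) rose by 0.71, while nitrate reductase NIA (Solyc11g013810.2, -0.46) and the asparagine synthetase ASN1 (Solyc06g007180.3, 0.01) were not called; NIA was called lower without shading replicate 3 (-0.73). AMT1-1 (Solyc09g090730.2), an ammonium transporter, had 52.2, 79.5 and 80.9 CPM in shading leaves and 178, 172 and 142 CPM in control leaves, a log2 fold change of -1.21 ± 0.20 (adjusted p = 0.00191, edgeR). Calls were lost for GS1 without shading replicate 1 or 3 or control replicate 2 or 3 (log2 fold change -0.58 to -0.42) and NIR without control replicate 1 (log2 fold change 0.65).

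Of 19 isoprenoid and carotenoid genes, 3 (15.8%) were called higher and 4 (21.1%) lower, against 16.0% and 14.2% of all tested genes, and the median log2 fold change was -0.07. ZEP (Solyc02g090890.3), zeaxanthin epoxidase and the member with the highest CPM, had 944, 1151 and 1350.5 CPM in shading leaves and 959, 1007 and 997 CPM in control leaves; the groups overlapped and the log2 fold change was 0.22 ± 0.15 (adjusted p = 0.292, edgeR). DXS1 (Solyc01g067890.3), which starts the plastid isoprenoid pathway, had 165, 233 and 246 CPM in shading leaves and 99.8, 123 and 98.5 CPM in control leaves, a log2 fold change of 1.00 ± 0.17 (adjusted p = 0.00261, edgeR). The other DXS gene, DXS2 (Solyc11g010850.2), had a log2 fold change of -1.56 and was not called. DESeq2 (-1.53), the fit of shading and control libraries only (-1.55) and edgeR without control replicate 1 (-1.85) called DXS2 lower. LCYE (Solyc12g008980.2), the epsilon-cyclase of the lutein branch, rose by 0.90, and the prenyl diphosphate synthase GGPPS2 (Solyc04g079960.1) by 0.85. CCD1A (Solyc01g087250.3), a carotenoid cleavage dioxygenase, had 40.7, 37.6 and 44.2 CPM in shading leaves and 62.4, 63.5 and 67.5 CPM in control leaves (log2 fold change -0.66 ± 0.12, adjusted p = 0.00274, edgeR), while its neighbour CCD1B (Solyc01g087260.3) had a log2 fold change of -0.03 and was not called. HDR (Solyc01g109300.3), the last enzyme of the plastid precursor pathway, the desaturase gene ZDS (Solyc01g097810.3) and the cyclase gene CYC-B (Solyc06g074240.2, NSY in RefSeq) fell by 0.44, 0.39 and 1.36. When 1 library was left out, calls ended for GGPPS2 without shading replicate 1 or 2 (log2 fold change 0.75 to 0.82), HDR without shading replicate 1 or 2 or control replicate 1, 2 or 3 (log2 fold change -0.46 to -0.35) and ZDS without shading replicate 2 or control replicate 1, 2 or 3 (log2 fold change -0.39 to -0.37). It also ended them for CYC-B without shading replicate 1, 2 or 3 or control replicate 2 or 3 (log2 fold change -1.44 to -1.10). The falling genes numbered 1 to 4 when 1 library was left out, and DESeq2 called 6 higher and 7 lower.

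Of 13 tested ethylene genes, 6 were called lower in shading and none higher (median log2 fold change -1.07), and 10 had all shading libraries below all control libraries, where 23.2% of all tested genes did. ACO4 (Solyc02g081190.3), an ACC oxidase that makes ethylene, had 292, 315 and 274 CPM in shading leaves and 352, 461 and 511 CPM in control leaves, a log2 fold change of -0.59 ± 0.16 (adjusted p = 0.0216, edgeR). EIL1 (Solyc06g073720.2), a transcription factor at the end of the ethylene signal, had 34.7, 38.0 and 43.4 CPM in shading leaves and 104, 103 and 98.5 CPM in control leaves, a log2 fold change of -1.40 ± 0.18 (adjusted p = 0.000703, edgeR). Replicates were close within groups for EIL1 and far apart between them. Its relative EIL3 (Solyc01g096810.3) fell by 1.18, EBF1 (Solyc12g009560.2), an F-box protein that targets EIL proteins, by 1.27, and the receptors ETR5 (Solyc11g006180.2) and ETR6 (Solyc09g089610.3) by 1.07 and 1.12. The receptors ETR2 (Solyc07g056580.3, -0.27) and ETR4 (Solyc06g053710.3, -0.51), the kinase CTR1 (Solyc10g083610.2, -0.27) and the membrane protein EIN2 (Solyc09g007870.3, -0.35) were not called; EIN2 was called lower without control replicate 3 (-0.46). Calls were lost for ACO4 without shading replicate 1 or 3 or control replicate 2 or 3 (log2 fold change -0.58 to -0.47) and ETR6 without shading replicate 2 or 3 or control replicate 1 or 2 (log2 fold change -1.13 to -0.86). The lower calls numbered 4 without shading replicate 3 and 4 without control replicate 2.

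All 3 gibberellin receptor genes were lower in shading, and none of the other 5 tested gibberellin genes was called (median of all 8, 0.34). GID1B1 (Solyc09g074270.3) had 3.52, 6.21 and 4.07 CPM in shading leaves and 14.1, 13.0 and 22.5 CPM in control leaves, a log2 fold change of -1.84 ± 0.42 (adjusted p = 0.0114, edgeR). GID1A (Solyc01g098390.3) had 19.6, 23.3 and 19.4 CPM in shading leaves and 44.9, 42.2 and 44.8 CPM in control leaves (log2 fold change -1.08 ± 0.12, adjusted p = 0.000527, edgeR). GID1B2 (Solyc06g008870.2) had 11.2, 12.3 and 6.33 CPM in shading leaves and 27.4, 24.3 and 21.9 CPM in control leaves (log2 fold change -1.29 ± 0.29, adjusted p = 0.00859, edgeR). Each of these receptors was separated between groups. PROCERA (Solyc11g011260.1), the DELLA repressor that the receptors bind, had 77.4, 78.1 and 103 CPM in shading leaves and 71.4, 75.4 and 68.8 CPM in control leaves, a log2 fold change of 0.26 ± 0.15 that was not called (adjusted p = 0.202, edgeR). GA20OX1 (Solyc03g006880.3), a biosynthetic oxidase, had a log2 fold change of 0.68 and overlapping groups. Without shading replicate 1, GID1B1 was not called (log2 fold change -1.67).

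Of 9 Aux/IAA genes, which encode repressors of auxin-responsive transcription, 7 were called lower and none higher (median log2 fold change -0.65). IAA9 (Solyc04g076850.3), of the highest CPM, had 107, 99.7 and 78.2 CPM in shading leaves and 151, 146 and 150.3 CPM in control leaves, a log2 fold change of -0.65 ± 0.14 (adjusted p = 0.00729, edgeR). IAA3 (Solyc09g065850.3) had 10.2, 6.95 and 8.46 CPM in shading leaves and 23.5, 30.1 and 57.3 CPM in control leaves, a log2 fold change of -2.12 ± 0.35 (adjusted p = 0.0027, edgeR). Control replicate 3 was the highest for IAA3, and all control libraries lay above all shading libraries for both genes. IAA8 (Solyc12g007230.2) fell by 0.64, IAA7 (Solyc06g053830.3) by 0.56, IAA4 (Solyc06g053840.3) by 0.79, IAA2 (Solyc06g084070.3) by 1.53 and 1 of the IAA15 loci (Solyc03g120390.3) by 0.99. Calls were lost for IAA7 without shading replicate 1 or 2 or control replicate 2 (log2 fold change -0.53 to -0.45), IAA4 without shading replicate 1, 2 or 3 or control replicate 2 or 3 (log2 fold change -0.86 to -0.65) and IAA2 without shading replicate 1 or 3 or control replicate 1, 2 or 3 (log2 fold change -1.63 to -1.29). They were also lost for Solyc03g120390.3 without shading replicate 1 or 3 or control replicate 2 or 3 (log2 fold change -1.08 to -0.72). IAA2 moved to -2.14 without shading replicate 2. The lower calls numbered 3 without shading replicate 1 or control replicate 2, and 4 without shading replicate 3 or control replicate 3. None of 7 auxin response factor genes, the activators and repressors that Aux/IAA proteins bind, was called by edgeR's test, DESeq2 or limma-voom, and 2 had an unadjusted p below 0.05. Without control replicate 3, ARF3 (Solyc02g077560.3) and ARF4 (Solyc11g069190.2) were called lower at -0.47 and -0.48.

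In abscisic acid metabolism and response, 2 of 4 genes were called lower (median -0.81). NCED1 (Solyc07g056570.1), the rate-limiting dioxygenase of abscisic acid synthesis, had 12.6, 27.5 and 20.1 CPM in shading leaves and 59.4, 32.8 and 45.7 CPM in control leaves, a log2 fold change of -1.19 ± 0.28 (adjusted p = 0.011, edgeR). AREB1 (Solyc04g078840.3), a transcription factor of abscisic acid responses, fell by 0.42 (adjusted p = 0.0482, edgeR). The call was lost for AREB1 without shading replicate 1, 2 or 3 or control replicate 1, 2 or 3 (log2 fold change -0.48 to -0.37). RLE scaling (-0.40), upper-quartile scaling (-0.42) and no filter on low counts (-0.42) ended it too. In the brassinosteroid pathway, BRI1 (Solyc04g051510.1), the receptor, had 39.6, 49.5 and 59.4 CPM in shading leaves and 83.6, 78.5 and 78.6 CPM in control leaves, a log2 fold change of -0.70 ± 0.15 (adjusted p = 0.00706, edgeR). The biosynthetic gene CYP85A1 (Solyc02g089160.3) had 12.8, 3.77 and 6.65 CPM in shading leaves and 1.76, 3.27 and 0.827 CPM in control leaves, a log2 fold change of 1.99 ± 0.52 (adjusted p = 0.0187, edgeR). Neither pair of groups overlapped. CYP85A1 was not called without shading replicate 1 or control replicate 1 (log2 fold change 1.41 to 1.93). Without control replicate 2 the log2 fold change of CYP85A1 was 2.60.

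**Figure D3:**
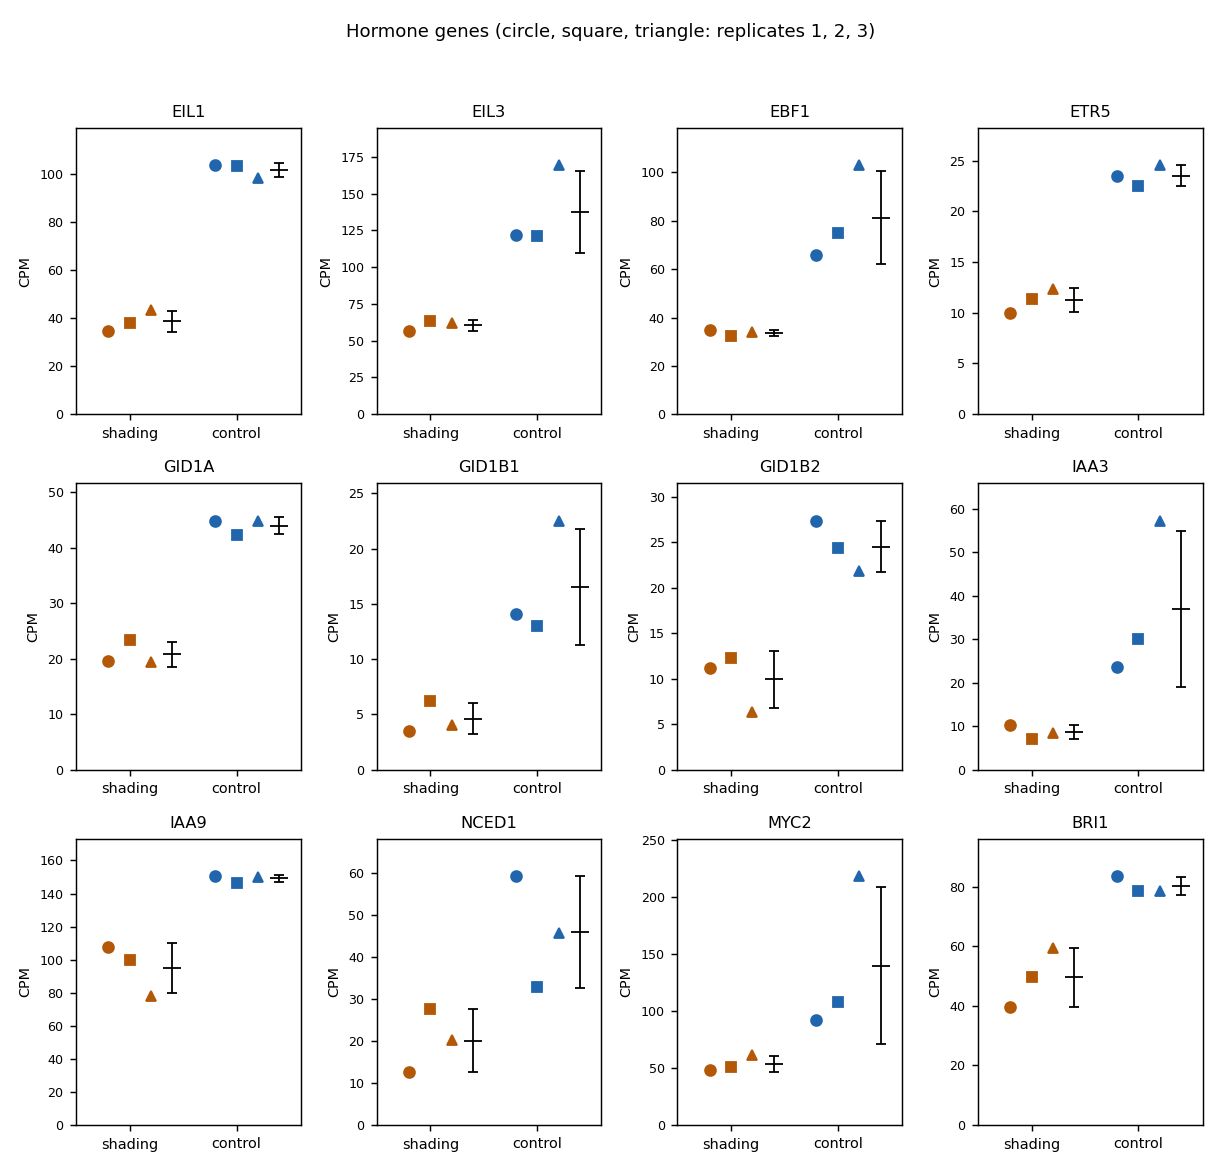
CPM (y axis, linear from 0) of 12 hormone genes in shading (left) and control (right) libraries; coloured points are libraries, with a marker shape per replicate, and the black bar is the mean with its SD (n = 3). Every panel has all shading libraries below all control libraries.

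Of 9 jasmonate genes 1 (11.1%) was called lower, against 14.2% of all tested genes, and none higher. It was MYC2 (Solyc08g076930.1), the master transcription factor of jasmonate responses. It had 48.4, 51.0 and 61.6 CPM in shading leaves and 92.5, 108 and 219 CPM in control leaves, a log2 fold change of -1.38 ± 0.29 (adjusted p = 0.00713, edgeR); control replicate 3 was the highest library. The synthesis genes AOC (Solyc02g085730.3, log2 fold change 0.00) and OPR3 (Solyc07g007870.3, -0.16) and the receptor gene COI1 (Solyc05g052620.3, 0.02) were not called. None of the 4 tested wound defence genes was called by edgeR (1 had an unadjusted p below 0.05), and 4 further ones did not pass the filter. LAPA2 at Solyc12g010040.2, a leucine aminopeptidase, had 217, 183 and 208 CPM in shading leaves and 179.5, 173 and 168 CPM in control leaves, a log2 fold change of 0.22 ± 0.12 (adjusted p = 0.193, edgeR). ARG1 at Solyc01g091160.4, an arginase, had a log2 fold change of -0.88 and lay just above the threshold (adjusted p = 0.05 after rounding, edgeR); DESeq2 (-0.87) and limma-voom (-0.92) called it.

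Of 9 tested pathogenesis-related genes 1 (11.1%) was called lower in shading, against 14.2% of all tested genes, and none higher. CHI3 (Solyc02g082920.3), a chitinase, had 416, 358 and 316 CPM in shading leaves and 553, 413 and 428 CPM in control leaves, with overlapping groups and a log2 fold change of -0.35 ± 0.17 (adjusted p = 0.145, edgeR). NPR1 (Solyc07g040690.3), a co-activator of salicylic acid responses in Arabidopsis, had 15.9, 15.7 and 16.9 CPM in shading leaves and 30.0, 21.2 and 24.9 CPM in control leaves, a log2 fold change of -0.65 ± 0.15 (adjusted p = 0.00945, edgeR). PR1b1 (Solyc09g007010.1) ranged from 36.4 to 99.6 CPM in shading leaves and from 10.6 to 93.1 CPM in control leaves. Of 3 lipoxygenase and lyase genes, LOXF (Solyc01g006560.3) was called lower, with 314, 353 and 413 CPM in shading leaves and 566, 478 and 590.1 CPM in control leaves and a log2 fold change of -0.60 ± 0.16 (adjusted p = 0.0208, edgeR). Without shading replicate 1 or 2 or control replicate 1 or 3, LOXF was not called (log2 fold change -0.58 to -0.51). None of 8 steroidal glycoalkaloid genes, which make the defence compound tomatine, was called by edgeR, DESeq2 or limma-voom, and 1 had an unadjusted p below 0.05. GAME11 (Solyc07g043420.3), of the highest CPM, had 1088, 1072 and 1682 CPM in shading leaves and 1029.9, 2082 and 2747 CPM in control leaves, a log2 fold change of -0.61 ± 0.46 (adjusted p = 0.354, edgeR).

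Genes of cell wall loosening, water channels and the cell cycle were higher in shading in part. Of 17 tested expansin and xyloglucan endotransglucosylase (XTH) genes 5 (29.4%) were called higher, against 16.0% of all tested genes. None was called lower, and the median was 0.39. EXP12 (Solyc05g007830.3), an expansin, had 265, 115 and 108 CPM in shading leaves and 9.10, 15.0 and 9.03 CPM in control leaves, a log2 fold change of 3.88 ± 0.42 (adjusted p = 0.000593, edgeR). Shading replicate 1 was the highest by far, and even the lowest shading library was above every control library. EXPA2 (Solyc06g049050.3) had 236, 142 and 118 CPM in shading leaves and 37.4, 50.7 and 12.9 CPM in control leaves (log2 fold change 2.30 ± 0.46, adjusted p = 0.00697, edgeR), and XTH1 (Solyc01g099630.3) had 72.6, 64.0 and 84.1 CPM in shading leaves and 11.8, 22.5 and 15.9 CPM in control leaves (log2 fold change 2.14 ± 0.30, adjusted p = 0.00119, edgeR). The expansins EXPA1 (Solyc06g051800.3) and EXP11 (Solyc04g081870.3) rose by 1.02 and 1.07. XTH5 (Solyc01g081060.3), of the highest CPM in the list, had 213, 122 and 144 CPM in shading leaves and 195, 199 and 199.6 CPM in control leaves, with overlapping groups and a log2 fold change of -0.31 ± 0.20 (adjusted p = 0.258, edgeR); it was called lower without shading replicate 1 (-0.57).

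Of 6 plasma membrane aquaporin (PIP) genes 2 rose and 1 fell. PIP2-1 (Solyc09g007760.3), of the highest CPM, had 2055, 1724 and 1764 CPM in shading leaves and 1365, 1691 and 1634 CPM in control leaves, a log2 fold change of 0.24 ± 0.14 that was not called (adjusted p = 0.206, edgeR). PIP2-9 (Solyc10g055630.2) had 221, 100.1 and 127 CPM in shading leaves and 30.7, 50.2 and 28.2 CPM in control leaves (log2 fold change 2.04 ± 0.31, adjusted p = 0.00174, edgeR). PIP2-6 (Solyc11g069430.2) had 187, 158 and 158 CPM in shading leaves and 370.4, 346 and 327 CPM in control leaves (log2 fold change -1.05 ± 0.19, adjusted p = 0.00343, edgeR). The groups did not overlap for these 3 genes. PIP1-7 (Solyc03g096290.3) rose by 1.32, and the tonoplast channel TIP2-2 (Solyc03g120470.3) had 27.8, 23.8 and 22.7 CPM in shading leaves and 16.4, 13.3 and 11.5 CPM in control leaves (log2 fold change 0.85 ± 0.19, adjusted p = 0.00893, edgeR).

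Of 6 cell cycle genes 3 were called higher (median 1.39). CYCD3 (Solyc02g092980.3), a D-type cyclin of entry into the cycle, had 16.2, 15.6 and 12.1 CPM in shading leaves and 4.07, 5.07 and 6.07 CPM in control leaves, a log2 fold change of 1.53 ± 0.18 (adjusted p = 0.000529, edgeR). The mitotic kinase gene CDKB1 (Solyc10g074720.2) rose by 1.90 and the mitotic cyclin gene CYCB1-2 (Solyc10g080950.2), at 0.138 to 1.09 CPM in all 6 libraries, by 1.87. CYCA1 (Solyc11g005090.2), of the highest CPM, had 20.4, 22.3 and 15.9 CPM in shading leaves and 22.0, 17.7 and 17.4 CPM in control leaves, with overlapping groups and a log2 fold change of 0.04 ± 0.18 (adjusted p = 0.893, edgeR). Leaving out shading replicate 2 or control replicate 1, 2 or 3 ended the call for CYCB1-2 (log2 fold change 1.57 to 2.06). CYCB1-2 did not pass a filter at 1 CPM in 3 libraries.

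**Figure D4:**
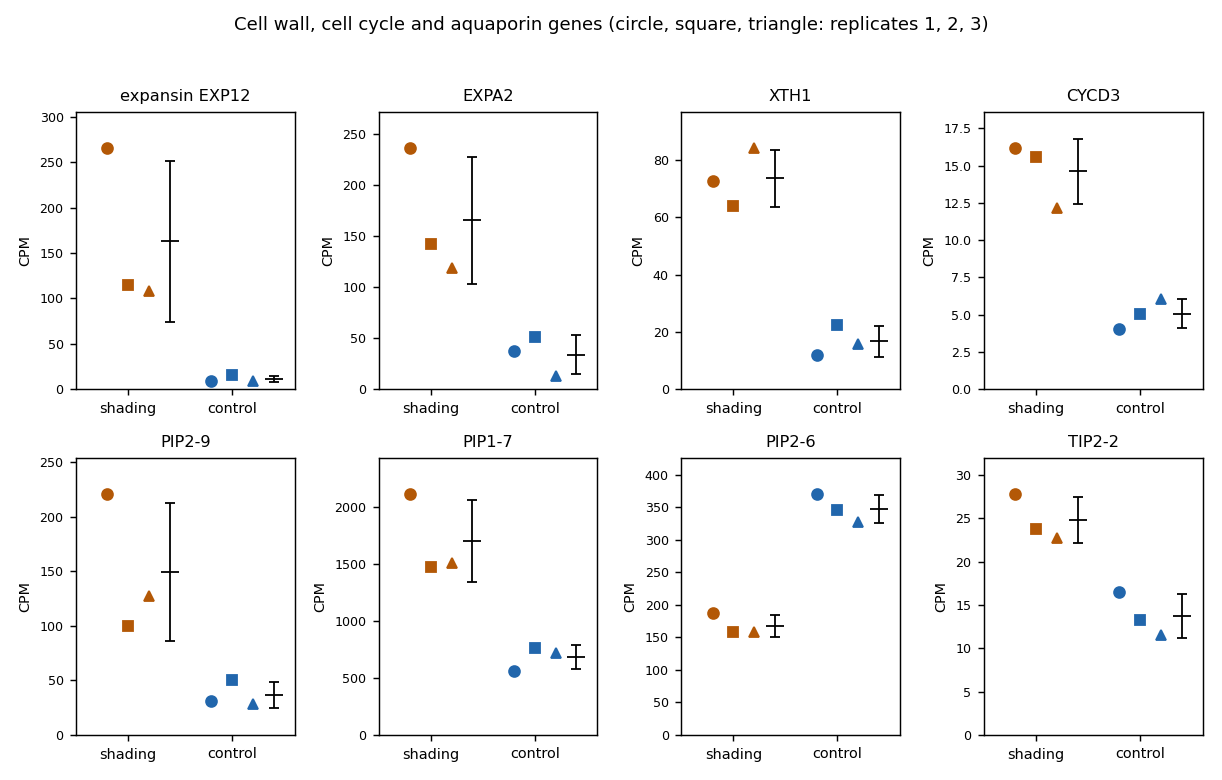
CPM (y axis, linear from 0) of 8 cell wall, cell cycle and aquaporin genes in shading (left) and control (right) libraries; coloured points are libraries, with a marker shape per replicate, and the black bar is the mean with its SD (n = 3). PIP2-6 is lower in all shading libraries, and the other 7 genes are higher in all of them.

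Phenylpropanoid and flavonoid genes were lower in shading: 9 of 12 tested were called lower and none higher (median log2 fold change -1.01). The PAL locus Solyc09g007920.3, for phenylalanine ammonia-lyase at the head of the pathway, had 489.8, 463 and 707 CPM in shading leaves and 768, 948 and 1316 CPM in control leaves, a log2 fold change of -0.87 ± 0.22 (adjusted p = 0.0155, edgeR). CHS2 (Solyc05g053550.3), a chalcone synthase, the first enzyme of flavonoids, had 45.4, 48.1 and 21.1 CPM in shading leaves and 149.5, 256 and 386 CPM in control leaves, a log2 fold change of -2.78 ± 0.55 (adjusted p = 0.00668, edgeR). Control replicate 3 was the highest library for both genes, and the groups did not overlap. The hydroxylase genes F3H (Solyc02g083860.3) and F3'H (Solyc03g115220.3) fell by 1.12 and 1.71, CHS1 (Solyc09g091510.3) by 1.62, and the transcription factor genes MYB12 (Solyc01g079620.3), of flavonols, and AN2 (Solyc10g086250.2, MYB75 in RefSeq), of anthocyanins, by 1.04 and 0.97. The PAL loci Solyc09g007900.3 and Solyc09g007910.3 fell by 2.14 and 0.93.

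With 1 library left out, the number of these 12 genes called lower was 2 to 6, and it was 2 without control replicate 3 or shading replicate 1. When 1 library was left out, calls ended for Solyc09g007920.3 without shading replicate 1 or 2 or control replicate 3 (log2 fold change -0.79 to -0.63), Solyc09g007900.3 without shading replicate 1, 2 or 3 (log2 fold change -2.17 to -2.09) and Solyc09g007910.3 without shading replicate 1 or 2 or control replicate 2 or 3 (log2 fold change -0.92 to -0.62). It also ended them for CHS1 without shading replicate 1, 2 or 3 or control replicate 2 or 3 (log2 fold change -1.84 to -0.96), F3H without shading replicate 2 or 3 or control replicate 3 (log2 fold change -1.12 to -0.87) and F3'H without shading replicate 1 or control replicate 1, 2 or 3 (log2 fold change -1.89 to -1.47). The same held for MYB12 without shading replicate 1, 2 or 3 or control replicate 1, 2 or 3 (log2 fold change -1.17 to -0.92) and AN2 without shading replicate 1 or 3 or control replicate 1, 2 or 3 (log2 fold change -0.98 to -0.88). The PAL locus Solyc09g007900.3 had a log2 fold change of -1.40 without control replicate 3, and CHS1 of -0.96. CHS1 was also not called by limma-voom (-1.34), without a filter on low counts, or in the fit of the 6 shading and control libraries alone. F3'H lost its call in the last 2 settings, and Solyc09g007910.3 in the last. With the replicate number as a block, CHS1 (-1.42), F3'H (-1.68) and MYB12 (-1.01) were not called. CHS2 kept its call without any 1 library.

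**Figure D5:**
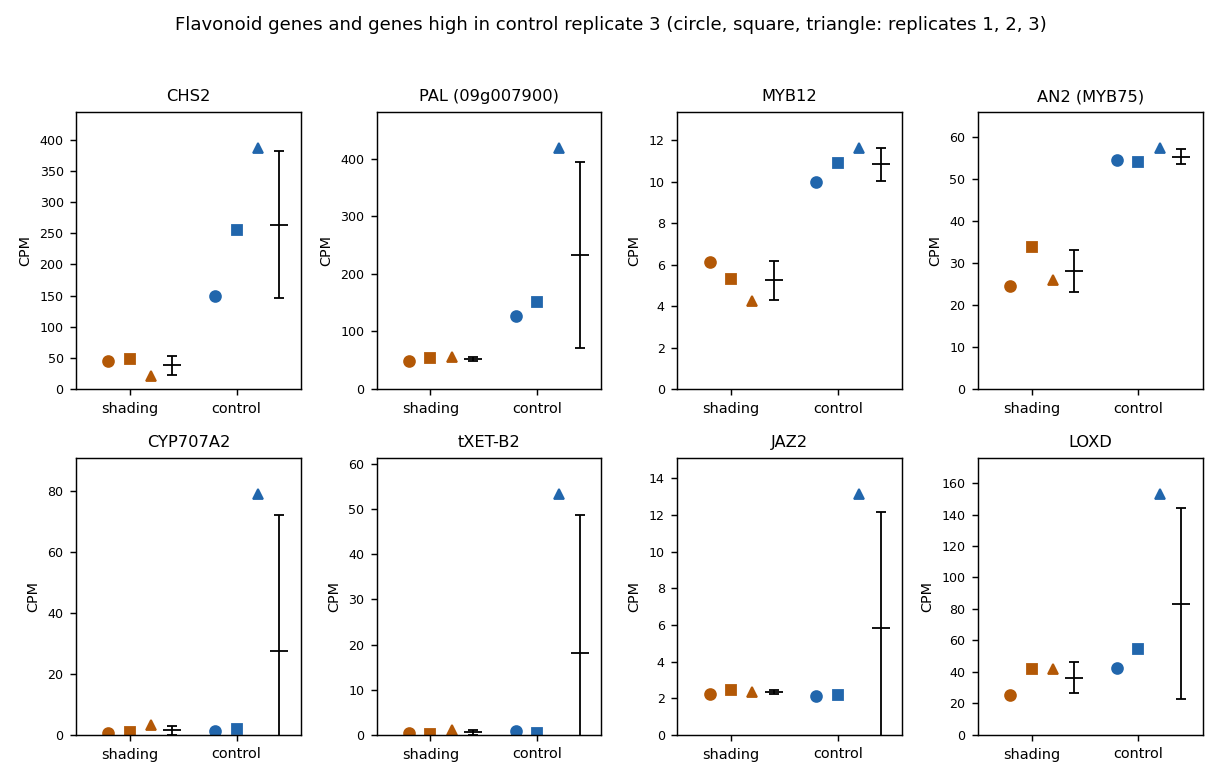
CPM (y axis, linear from 0) of 4 phenylpropanoid and flavonoid genes (top) and 4 genes highest in control replicate 3 (bottom), in shading (left) and control (right) libraries; coloured points are libraries, with a marker shape per replicate, and the black bar is the mean with its SD (n = 3). The top genes are lower in all shading libraries, while in the bottom row the triangle of control replicate 3 sits far above the other 5 libraries. SD bars that would reach below 0 are cut at 0.

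By number of genes, ascorbate and antioxidant genes were mostly higher or not called. Of 6 genes of ascorbate synthesis 4 rose and 1 fell (median 0.46). The summed CPM of these 6 genes was lower, at 4601 to 5458 in shading libraries, against 6994 to 7542 in control libraries. GGP1 (Solyc06g073320.3), GDP-L-galactose phosphorylase, the main control step of the pathway, had 3122, 3057 and 3689 CPM in shading leaves and 6413, 6323 and 5941 CPM in control leaves, a log2 fold change of -0.92 ± 0.15 (adjusted p = 0.00174, edgeR). GLDH (Solyc10g079470.3), the last enzyme, had 65.5, 75.5 and 73.3 CPM in shading leaves and 52.4, 40.8 and 38.6 CPM in control leaves, a log2 fold change of 0.70 ± 0.16 (adjusted p = 0.00857, edgeR). Both genes were separated between groups, in opposite directions. The epimerase genes GME2 (Solyc09g082990.3) and GME1 (Solyc01g097340.3) rose by 0.69 and 0.61, and the GDP-mannose pyrophosphorylase gene GMP3 (Solyc03g096730.3) by 0.31. Calls were lost for GME1 without control replicate 1 (log2 fold change 0.52) and GMP3 without shading replicate 1, 2 or 3 or control replicate 1, 2 or 3 (log2 fold change 0.24 to 0.38). Upper-quartile scaling, no filter on low counts and the fit of 6 libraries each ended the call of GMP3 (0.31 in each).

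Of 11 antioxidant enzyme genes 4 (36.4%) were called higher, against 16.0% of all tested genes, and none lower (median 0.28). APX6 (Solyc11g018550.3), an ascorbate peroxidase, had 90.7, 82.8 and 111 CPM in shading leaves and 38.7, 45.3 and 40.5 CPM in control leaves, a log2 fold change of 1.19 ± 0.14 (adjusted p = 0.000524, edgeR). DHAR1 (Solyc05g054760.3), a dehydroascorbate reductase and of the highest CPM in the list, had 456, 561 and 534 CPM in shading leaves and 621, 711 and 558 CPM in control leaves, with overlapping groups and a log2 fold change of -0.28 ± 0.15 (adjusted p = 0.19, edgeR). DHAR2 (Solyc11g011250.2) rose by 0.99, the superoxide dismutase gene SODCP.2 (Solyc11g066390.2) by 0.95 and the monodehydroascorbate reductase gene MDHAR (Solyc08g081530.3) by 0.70. Neither catalase gene was called by edgeR, DESeq2 or limma-voom, and 0 had an unadjusted p below 0.05. CAT2 (Solyc02g082760.3) had 3637, 4739.8 and 5371 CPM in shading leaves and 4585, 4676 and 4799 CPM in control leaves, with overlapping groups and a log2 fold change of -0.03 ± 0.15 (adjusted p = 0.895, edgeR).

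Of 13 heat shock genes 4 (30.8%) were called lower, against 14.2% of all tested genes, and none higher (median log2 fold change -0.24). HSC80 (Solyc07g065840.2), a cytosolic HSP90 chaperone, had 1089.8, 1076 and 1037 CPM in shading leaves and 1675, 1601 and 1575 CPM in control leaves, a log2 fold change of -0.60 ± 0.13 (adjusted p = 0.00618, edgeR). HSFB1 (Solyc02g090820.3), a heat stress transcription factor, had 10.8, 14.4 and 9.62 CPM in shading leaves and 30.8, 24.3 and 34.5 CPM in control leaves, a log2 fold change of -1.36 ± 0.18 (adjusted p = 0.000902, edgeR). Shading values lay below all control values for both genes. An HSP17 locus (Solyc08g062450.1) fell by 1.26. Its call was lost without shading replicate 1 or 3 or control replicate 2 or 3 (log2 fold change -1.24 to -1.08), which left 3 heat shock genes called lower. The factors HSFA1 (Solyc08g005170.3, -0.25) and HSFA3 (Solyc09g009100.3, -0.07) and both HSP70 loci (-0.04 at Solyc10g086410.3 and 0.22 at Solyc06g076020.3) were not called.

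Of 10 light perception genes 1 (10%) was called higher in shading, against 16.0% of all tested genes, and none lower. It was PHYE (Solyc02g071260.3), a phytochrome, with 48.9, 57.3 and 81.5 CPM in shading leaves and 37.0, 42.1 and 41.4 CPM in control leaves. Its log2 fold change was 0.64 ± 0.18 (adjusted p = 0.0233, edgeR). Without shading replicate 3 or control replicate 1 or 3, PHYE was not called (log2 fold change 0.41 to 0.66). CRY1B (Solyc12g057040.2), a cryptochrome and of the highest CPM in the list, had 149, 134 and 156 CPM in shading leaves and 177, 178 and 175 CPM in control leaves, a log2 fold change of -0.27 ± 0.12 (adjusted p = 0.122, edgeR). The phytochrome genes PHYA (Solyc10g044670.2) and PHYB1 (Solyc01g059870.4) had log2 fold changes of -0.11 and -0.25. The phototropin gene PHOT2 (Solyc01g097770.3) had 601, 609.8 and 809 CPM in shading leaves and 802, 772 and 783 CPM in control leaves, with a log2 fold change of -0.22 ± 0.14 (adjusted p = 0.272, edgeR). ELIP (Solyc09g082690.3), an early light-induced protein of the thylakoid, had 128, 141 and 89.0 CPM in shading leaves and 173, 231 and 213 CPM in control leaves, a log2 fold change of -0.78 ± 0.20 (adjusted p = 0.0167, edgeR). Leaving out control replicate 2 ended the call for ELIP (log2 fold change -0.67). Neither flowering gene was called by any of the 3 tools. SFT (Solyc03g063100.2) was higher in shading at an unadjusted p below 0.05 (edgeR), without overlap of the groups. The summed CPM of both genes, 88.76 to 108.9 in shading and 102.8 to 127.8 in control libraries, was nearly all that of SP5G. SP5G (Solyc05g053850.3), a repressor of flowering, had 87.9, 108 and 108 CPM in shading leaves and 103, 128 and 109.8 CPM in control leaves, with overlapping groups and a log2 fold change of -0.16 ± 0.18 (adjusted p = 0.534, edgeR).

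Of 7 tested dehydration and glutamate decarboxylase genes 1 (14.3%) was called higher by edgeR, against 16.0% of all tested genes, and none lower. GAD2 (Solyc11g011920.2), a glutamate decarboxylase, had 558, 581 and 591 CPM in shading leaves and 423, 447 and 482 CPM in control leaves, a log2 fold change of 0.36 ± 0.12 (adjusted p = 0.0463, edgeR). The call was lost for GAD2 without shading replicate 1, 2 or 3 or control replicate 1, 2 or 3 (log2 fold change 0.31 to 0.41). Upper-quartile scaling (0.35) and no filter on low counts (0.36) also ended it. TAS14 (Solyc02g084850.3), a dehydrin, had 1.17, 3.53 and 0.194 CPM in shading leaves and 4.10, 6.03 and 7.03 CPM in control leaves, without overlap and without a call (log2 fold change -1.75 ± 0.71, adjusted p = 0.0924, edgeR). It was called lower by DESeq2 (-1.78), limma-voom (-2.20) and edgeR without shading replicate 2 (-2.96). GAD3 (Solyc01g005000.3), another glutamate decarboxylase, had 13.0, 40.5 and 49.6 CPM in shading leaves and 65.2, 87.4 and 65.4 CPM in control leaves, also without overlap (log2 fold change -1.09 ± 0.45, adjusted p = 0.101, edgeR), and DESeq2 called it lower (-1.06). Among markers of other tissues and cells, E8 (Solyc09g089580.3), a fruit ripening gene, was low and called lower, with 1.33, 3.84 and 0.710 CPM in shading leaves and 9.57, 11.4 and 6.34 CPM in control leaves and a log2 fold change of -2.16 ± 0.50 (adjusted p = 0.0111, edgeR), and it was -3.11 without shading replicate 2. CER6 (Solyc02g085870.3), a wax synthesis gene of the epidermis, had 269, 229.8 and 223 CPM in shading leaves and 306, 267 and 177 CPM in control leaves, with overlapping groups and a log2 fold change of -0.05 ± 0.19 (adjusted p = 0.859, edgeR). The epidermal gene CD2 (Solyc01g091630.3) fell by 0.50, and the phloem gene SUT1 is given above with the sucrose carriers. CD2 was not called without shading replicate 1 or control replicate 2 or 3 (log2 fold change -0.51 to -0.39). The summed CPM of the 4 markers in this list was 296.8 to 325.1 in shading and 279 to 406.3 in control libraries, and the part of cell make-up in the results above was not tested.

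Outside the lists, 4 loci that no source used here names are given, 2 in each direction. They come next after the 2 largest log2 fold changes in each direction, which are not described here, among called loci with separated groups and 5 CPM or more in either group. Solyc03g006410.3 had 24.6, 15.9 and 11.6 CPM in shading leaves and 1.22, 0.960 and 0.414 CPM in control leaves (log2 fold change 4.33 ± 0.51, adjusted p = 0.000703, edgeR). Solyc02g080200.3 had 43.0, 241 and 260.2 CPM in shading leaves and 10.1, 17.8 and 11.7 CPM in control leaves (log2 fold change 3.78 ± 0.83, adjusted p = 0.0116, edgeR). Shading replicate 1 was far below the other shading libraries at this locus, yet above all controls. Solyc06g068130.3 had 0.235, 0.0353 and 0 CPM in shading leaves and 10.5, 9.80 and 10.7 CPM in control leaves (log2 fold change -6.63 ± 0.56, adjusted p = 0.000265, edgeR). Its log2 fold change was -8.57 without shading replicate 1. Solyc00g026160.3 had 0.978, 0.141 and 0.452 CPM in shading leaves and 40.0, 6.88 and 12.7 CPM in control leaves (log2 fold change -5.24 ± 1.38, adjusted p = 0.0233, edgeR). Its call was lost without any 1 of the shading replicates or control replicate 1, with log2 fold changes of -6.22 to -4.21.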

How the data were processed

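Leaf RNA was made into TruSeq libraries without strand information, 3 per group. The authors deposited estimated counts (RSEM, rounded to whole numbers). Trim Galore, STAR, RSEM and DESeq2 are the tools named in the submitters' processing notes. Versions, build and annotation remain not given in the sources used here. Because RSEM shares ambiguous reads out by estimation, near-identical copies are uncertain, as are overlapping genes.

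From the deposited counts, all 9 libraries were fitted together with edgeR 4.0.16 (R 4.3.3): TMM scaling, filterByExpr (20480 of 23195 genes kept, 88.3%), the robust quasi-likelihood F-test of shading minus control, and Benjamini-Hochberg adjustment over all tested genes with a threshold of 0.05. The common biological coefficient of variation was 0.23. SE is the size of the log2 fold change divided by the square root of F. Of all tested genes, 8525 had an unadjusted p below 0.05. P-values compare 3 shading with 3 control libraries, of 17617138 to 29758980 counts, against a spread estimated from all 9 libraries.

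The 471 loci (407, then 64 added later under 11 further headings) and their lists were chosen with earlier results of these data known. Of these, 39 were not in the count table, 101 had no gene of that name or a matched one in the reference table, 21 were named on another chromosome and 25 lay elsewhere in the gene order; all were dropped, as the published names were recalled and could not be looked up. Of the 285 kept, 151 had the same symbol in the reference table, 4 a listed synonym and 130 a RefSeq symbol matched by hand. This is stricter than the planned rule, which dropped only contradicted loci. A first order check assumed evenly spaced locus numbers and kept fewer loci. It was replaced, on gene order alone, by one on gene ranks, in which the kept loci differed by a median of 2.7 genes. In each list the member of highest CPM and the called, separated members with the largest rise and fall, at 5 CPM or more, were named with all values; other members were named with a log2 fold change. The values of 1 member that this rule names are not reported here. Alternatives were other tests (DESeq2 1.42.0; limma 3.58.1 with voom; glmTreat with a minimum fold), upper-quartile or RLE scaling, no filter or one at 1 CPM, only the compared groups, a replicate block, and each library left out.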

Additional observations from a re-analysis of the deposited data

How the results depend on the processing

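Under DESeq2, limma-voom, RLE and upper-quartile scaling, both other filters and the fit of shading and control libraries alone, the counts of genes called higher and lower stayed within 1.5 times of 3283 and 2899. Of the 113 called named genes, DESeq2 called 113, limma-voom 112 and the fit of 6 libraries alone 108. A minimum log2 fold change of 1 (glmTreat) left 185 genes higher and 59 lower, and 7 named genes higher and 1 lower. With 1 library left out, 2470 to 3032 genes were called higher and 1922 to 2276 lower, the lowest without control replicate 3; of the named genes 44 to 56 were called higher and 38 to 53 lower. Deviations of same-numbered libraries correlated at 0.097, -0.017 and 0.085, so the numbers were not taken to pair the libraries; with the number as a replicate block 2850 genes were called higher and 2382 lower, and 55 and 51 of the named genes, 101 of the 113 calls being kept; 5 named genes were called with it alone or with some other alternatives, among them both NP24-I loci (Solyc08g080640.2, 2.00; Solyc08g080650.3, 1.04), FRK2 (-0.67) and GAD3 (-1.25). The block ended the calls of PSBO, SBPASE, HDR, INVINH1, HXK3, IAA4, AREB1, CHS1, F3'H, MYB12, GMP3 and GAD2. Of the tested named genes outside the 113 calls, 35 were called in at least 1 alternative, 16 of them by DESeq2. Uncalled genes near 0 turned direction: CAT2 (Solyc02g082760.3; -0.16 to 0.11, above 0 without shading replicate 1), SUT1 (Solyc11g017010.2; -0.13 to 0.07, above 0 without shading replicate 1 or control replicate 1, 0.05, or 2, 0.06), FRK3 (Solyc02g091490.4; -0.12 to 0.01, above 0 without shading replicate 3), CER6 (Solyc02g085870.3; -0.25 to 0.12, not below 0 without shading replicate 3, 0.00, or control replicate 1 or 2, 0.02), and CYCA1 (Solyc11g005090.2; -0.06 to 0.17, below 0 without shading replicate 2 or control replicate 3, -0.02). The cause was not tested. A count of 3 corresponded to 0.103 to 0.194 CPM, so levels near these values rest on few counts, most of all in shading replicate 3.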

Other observations

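Several named genes that were not called were far higher in control replicate 3 than in any other library of the comparison. CYP707A2 (Solyc08g005610.3), an abscisic acid hydroxylase, had 0.587, 0.882 and 3.23 CPM in shading libraries and 1.19, 2.00 and 79.0 CPM in control libraries. The wall enzyme gene tXET-B2 (Solyc07g056000.2) had 0.313, 0.212 and 1.10 CPM in shading libraries and 0.756, 0.499 and 53.3 CPM in control libraries. The jasmonate repressor gene JAZ2 (Solyc12g009220.2) had 2.23, 2.43 and 2.32 CPM in shading libraries and 2.12, 2.19 and 13.1 CPM in control libraries, and the lipoxygenase gene LOXD (Solyc03g122340.3) had 25.2, 42.1 and 41.8 CPM in shading libraries and 42.5, 54.8 and 153 CPM in control libraries. In each case a single control library stood above the other 5. An XTH3 locus (Solyc03g093130.3) turned direction with that library: its log2 fold change was -1.50 with all libraries and 2.86, called higher, without control replicate 3. Why that library differed was not tested.

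The pathogenesis-related NP24-I loci, of the osmotin family, were highest in shading replicate 1. Solyc08g080650.3 had 362, 154 and 83.2 CPM in shading libraries and 156, 70.6 and 48.3 CPM in control libraries, and replicate 1 was highest and replicate 3 lowest in both groups. This locus was not called (log2 fold change 1.13, adjusted p = 0.255, edgeR). The neighbouring NP24-I locus Solyc08g080640.2 had 7.32, 2.43 and 1.10 CPM in shading libraries and 1.22, 0.845 and 0.345 CPM in control libraries, in the same replicate order (log2 fold change 2.18, adjusted p = 0.0532, edgeR). It was called higher by DESeq2 (2.18), by edgeR with a filter at 1 CPM (2.18) and without shading replicate 3 (2.60).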
